A study of Mus musculus with 9 samples.

Results

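The gene group described here is the basement membrane of the mouse lung: 38 genes for its collagens, laminins, nidogens, proteoglycans, smaller glycoproteins and the receptors that anchor cells to it. They were taken by gene symbol from a fixed list, and all 38 were found among the 16165 genes of the deposited table. No cut-off on a measured value was used, but the list was chosen with earlier results of these data known. The data are RNA sequencing of total lung RNA from 9 libraries in 3 groups of 3. The first group is control mice (genotype labelled Control) given vehicle for 3 weeks. Their sample descriptions carry the code ST and the word Normal, and those of both TGFα groups carry BT Dox. What ST and BT stand for was not established here, so the groups may differ in transgenes as well as in Dox. The other groups are TGFα mice kept on doxycycline (Dox) for 6 weeks and given either vehicle or pirfenidone in the last 3 weeks. The series description can be read as giving Dox to the control mice too, but their own labels name none. Strain, age, sex, the promoter that drives the transgene and the dose of pirfenidone are not stated in the labels. No control mice received pirfenidone, so an effect of the drug without TGFα was not measured. The labels do not say that the 3 libraries of a group came from separate mice, so the p-values measure the spread between libraries, which may be partly technical.

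A basement membrane is the thin matrix sheet under epithelia and endothelia and around fat and muscle cells. Laminin trimers of 1 alpha, 1 beta and 1 gamma chain and triple helices of collagen IV form separate networks, which nidogens and the heparan sulfate proteoglycans perlecan and agrin connect. In the alveolus the sheets of epithelium and capillary fuse into the thin wall through which gas passes. TGFα is a ligand of the epidermal growth factor receptor, and its overexpression in mouse lung is used as a model of fibrosis. Pirfenidone is a drug given for idiopathic pulmonary fibrosis.

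Levels are RPKM, which are reads scaled to the length of the gene and to the reads of the library, as the authors deposited them. The library totals behind them ranged from 11428709 to 18874158 reads, and the 3 pirfenidone libraries were the shallowest. A gene entered the tests when it exceeded 1 RPKM in 3 or more libraries, which held for 13849 genes and for 35 of the 38 members. Each value of a tested member rested on at least 121 reads. The other members, Lama1, Fras1 and Frem2, lay at 0.106 to 1.21 RPKM and were not tested. Each of the 8 lung identity genes on the list used as a check was detected in every library, with a summed level of 32909 to 65740 RPKM. The mouse Tgfa gene itself read 5.95 to 7.47 RPKM in control, 6.37 to 7.8 in TGFα vehicle and 5.6 to 5.67 in pirfenidone lungs, so it does not mark the transgene, whose species the labels do not give. Transcripts from outside the lung differed between libraries. The summed level of 12 skeletal muscle genes was 1296, 484 and 5.98 RPKM in TGFα vehicle libraries 1 to 3 and 348, 2033 and 11 RPKM in the pirfenidone libraries, against 9.94 to 14.6 RPKM in controls.

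In TGFα lungs on vehicle, 6 of the 35 tested members rose against control (17.1%, where 12.0% of all genes tested did) and 3 fell (8.57%, against 11.2% of all genes). A call here means an adjusted p under 0.05 from limma, with Benjamini-Hochberg adjustment over all genes tested. The genes that rose were Col15a1, Lamc3, Lama2, Egfl6, Lamb3 and Lamb1, and those that fell were Ntn4, Ntn1 and Tinagl1. The shares lay near those of all genes, and the median log2 change of the tested members was 0.01, against 0.04 over all genes. For 18 of the 35 members (51.4%) the libraries of the groups did not overlap, against 44.2% of all genes. Without vehicle library 2 the count of members that rose was 3, while all genes called in both directions went from 3222 to 1361. The count of members that fell was 0 when control library 1 or 2 or vehicle library 2 or 3 was left out. Those fits called 1317 to 1667 genes in both directions together. Without control library 3 or pirfenidone library 3, 5 members fell, with 3490 and 3977 genes called.

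**Figure D1:**
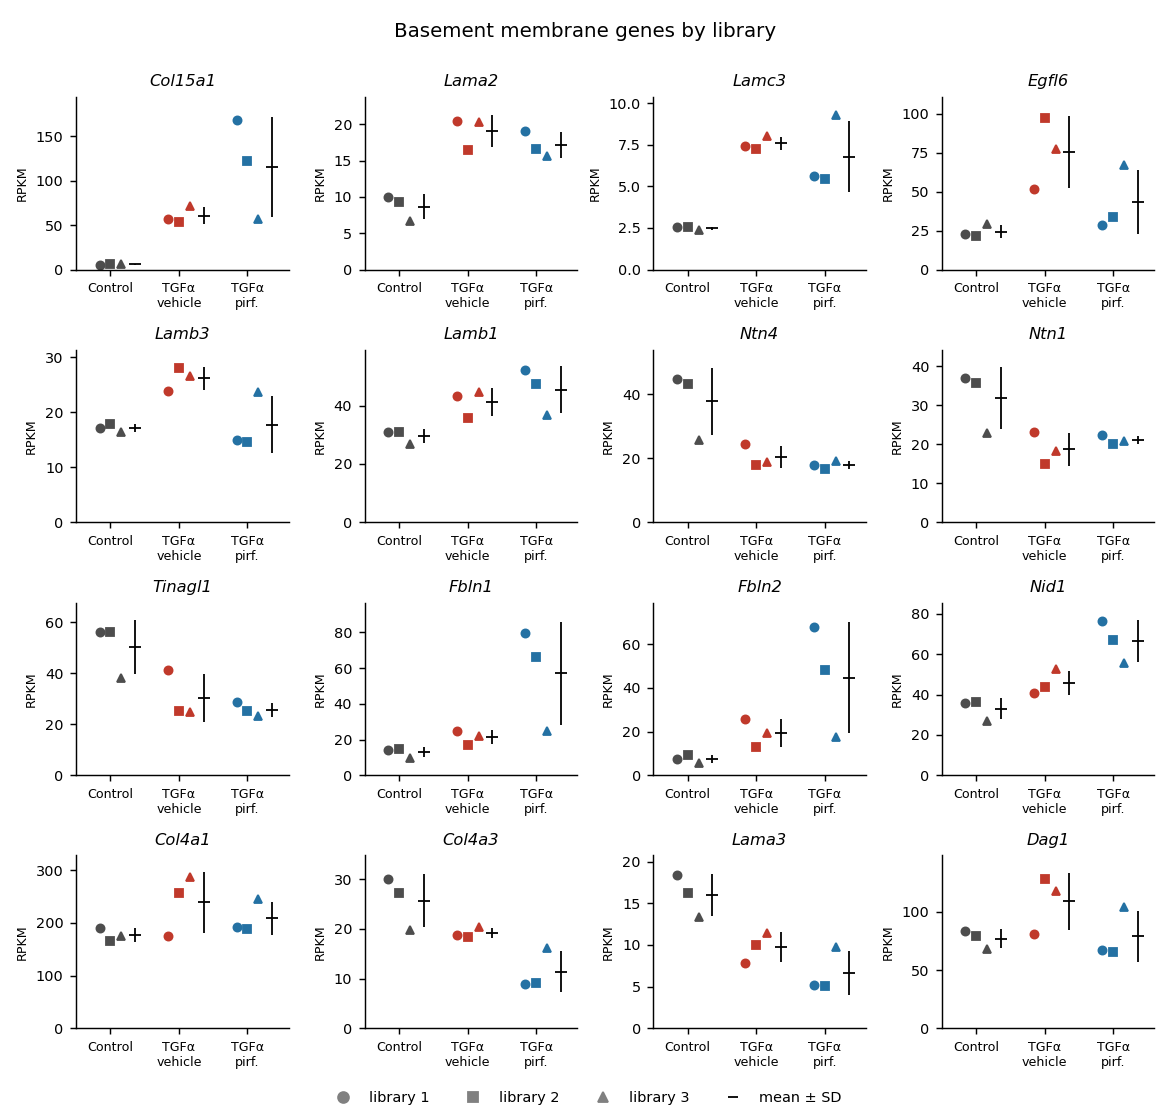
Level in RPKM (y axis, from 0) of 16 basement membrane genes in each library of the 3 groups (x axis); symbols are libraries 1 to 3 and the bar is the group mean ± SD. Col15a1 lies at 4.85 to 6.6 RPKM in control and at 53.7 to 168 RPKM in all TGFα libraries, while pirfenidone library 3 often lies apart from pirfenidone libraries 1 and 2.

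RefSeq promoter windows, running from 250 bases before to 50 after the listed start on GRCm38.p6, were at hand for 26 of the 38 members. Those of the genes with the largest rise (Col15a1) and the largest fall (Ntn4), of a laminin chain that rose (Lama2) and of the most abundant collagen (Col4a1) are shown, 5′ to 3′ on each gene's strand. Capitals mark matches, on either strand, to the GC box GGGCGG and to CCAAT.
Col15a1 (chr4:47207762-47208061, plus strand): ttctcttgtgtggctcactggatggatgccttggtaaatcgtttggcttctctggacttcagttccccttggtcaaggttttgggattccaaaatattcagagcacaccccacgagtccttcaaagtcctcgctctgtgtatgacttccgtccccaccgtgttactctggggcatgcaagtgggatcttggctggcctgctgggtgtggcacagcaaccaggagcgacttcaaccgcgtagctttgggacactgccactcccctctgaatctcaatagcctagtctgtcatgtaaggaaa
Ntn4 (chr10:93640799-93641098, plus strand): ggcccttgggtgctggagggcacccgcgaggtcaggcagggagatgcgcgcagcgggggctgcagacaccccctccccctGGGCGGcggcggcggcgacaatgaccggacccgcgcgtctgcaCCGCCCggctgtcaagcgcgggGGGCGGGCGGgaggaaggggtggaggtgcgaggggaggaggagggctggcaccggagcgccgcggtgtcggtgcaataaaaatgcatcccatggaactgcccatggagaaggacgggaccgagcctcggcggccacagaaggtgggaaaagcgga
Lama2 (chr10:27616893-27617192, minus strand): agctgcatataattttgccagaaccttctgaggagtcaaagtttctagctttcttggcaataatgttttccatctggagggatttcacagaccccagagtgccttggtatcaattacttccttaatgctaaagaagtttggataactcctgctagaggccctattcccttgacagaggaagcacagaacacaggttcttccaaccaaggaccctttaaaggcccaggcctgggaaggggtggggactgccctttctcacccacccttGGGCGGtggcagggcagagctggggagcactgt
Col4a1 (chr8:11312777-11313076, minus strand): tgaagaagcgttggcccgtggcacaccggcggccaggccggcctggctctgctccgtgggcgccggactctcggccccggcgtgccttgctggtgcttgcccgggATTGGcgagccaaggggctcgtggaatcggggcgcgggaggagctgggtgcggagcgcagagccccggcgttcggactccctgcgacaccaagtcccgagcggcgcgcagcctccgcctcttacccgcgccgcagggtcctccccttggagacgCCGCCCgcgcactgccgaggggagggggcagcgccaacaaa
The Col15a1 window held none of the 4 motifs searched, and the Ntn4 window held 4 GC boxes, of which a pair overlap. The Lama2 window held 1 GC box. The Col4a1 window held 1 GC box and 1 CCAAT, and it also contains the start of Col4a2, which lies 21 bases away on the opposite strand. Over the 26 member windows the GC box was found in 18 (69.2%), against 35.7% of all 32851 windows. CCAAT was found in 11 (42.3%, against 37.4%), TATAAA in 0 (against 13.6%) and the AP-1 motif TGANTCA in 2, Egflam and Tinagl1 (7.69%, against 7.81%). For the members only the first window of each gene was counted, while the share of all windows counts every window, expressed gene or not. The shares are therefore not strictly like for like. These are matches of letters, not binding sites. The listed starts of Col15a1, Lama2 and Col4a1 lie inside those genes' annotated spans, so another start of each has no window of its own here.

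Collagen IV was the most abundant structural family, and its chains differed in how they compared with control. Col4a1 and Col4a2, the chains of the common trimer found in nearly all basement membranes, made up 82.8% ± 2.58 (SD, n = 3) of the summed collagen IV level in control lungs, 87.7% ± 1.59 in TGFα vehicle and 87.6% ± 0.34 in pirfenidone lungs. Col4a3 and Col4a4 form with Col4a5 the trimer of the alveolar and glomerular basement membrane. Both fell against control in pirfenidone lungs, and neither passed the test in TGFα vehicle lungs.

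Col4a1 (gene ID 12826, chromosome 8, 11198423 to 11312889 on GRCm38, as all positions here) read 190, 165 and 176 RPKM in the control libraries, 175, 256 and 287 in TGFα vehicle and 192, 188 and 245 in pirfenidone. Vehicle libraries 2 and 3 were the highest, vehicle library 1 lay among the controls, and the groups overlapped. The log2 difference between TGFα vehicle and control was 0.41 ± 0.18 (SE, adjusted p = 0.14). Col4a2 (chromosome 8, 11312805 to 11449287) read 144, 129 and 125 RPKM in control, 146, 168 and 193 in vehicle and 136, 131 and 164 in pirfenidone. Every vehicle library stood above every control, by a narrow margin for vehicle library 1, with a log2 difference of 0.34 ± 0.13 (adjusted p = 0.0867). The annotated exons of the neighbours share 22 bases.

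Col4a3 (gene ID 12828, chromosome 1, 82586921 to 82722059) read 30.1, 27.2 and 19.7 RPKM in control, 18.7, 18.4 and 20.3 in TGFα vehicle and 8.92, 9.02 and 16.2 in pirfenidone. Control library 3 lay within the vehicle range, and all pirfenidone libraries lay below both other groups. Against control, the mean was 1.34-fold lower with vehicle (log2 difference -0.39 ± 0.22, adjusted p = 0.239) and 2.26-fold lower with pirfenidone (-1.14 ± 0.22, adjusted p = 0.0119). Its neighbour Col4a4 (chromosome 1, 82448419 to 82587034) read 20, 17.9 and 13.2 RPKM in control, 12.4, 11.7 and 12.2 in vehicle and 7.56, 6.18 and 11.7 in pirfenidone. The controls stood above all TGFα libraries. Its difference was -0.44 ± 0.21 for vehicle (adjusted p = 0.158) and -0.95 ± 0.21 for pirfenidone (adjusted p = 0.0175, and 0.0602 to 0.0675 when control library 1 or 2 or pirfenidone library 1 or 2 was left out).

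The ratio of Col4a1 to Col4a3 within a library needs no scaling between libraries. It was 6.29, 6.06 and 8.95 in control, 9.38, 13.9 and 14.2 in TGFα vehicle and 21.6, 20.8 and 15.2 in pirfenidone lungs. The 3 groups did not overlap in this ratio, but the gaps were narrow (8.95 against 9.38, and 14.2 against 15.2). The ratio was not tested, and how often other gene pairs separate the groups was not counted. Among the remaining chains, Col4a5, which joins Col4a3 and Col4a4 or pairs with Col4a6, averaged 17.8 ± 3.27 (SD, n = 3), 20.7 ± 3.71 and 24.6 ± 0.977 RPKM in control, vehicle and pirfenidone lungs. Its pirfenidone libraries lay above the controls, with an adjusted p of 0.0692. Col4a6 stayed between 2.99 and 6.23 RPKM with overlapping groups in both comparisons with control.

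**Figure D2:**
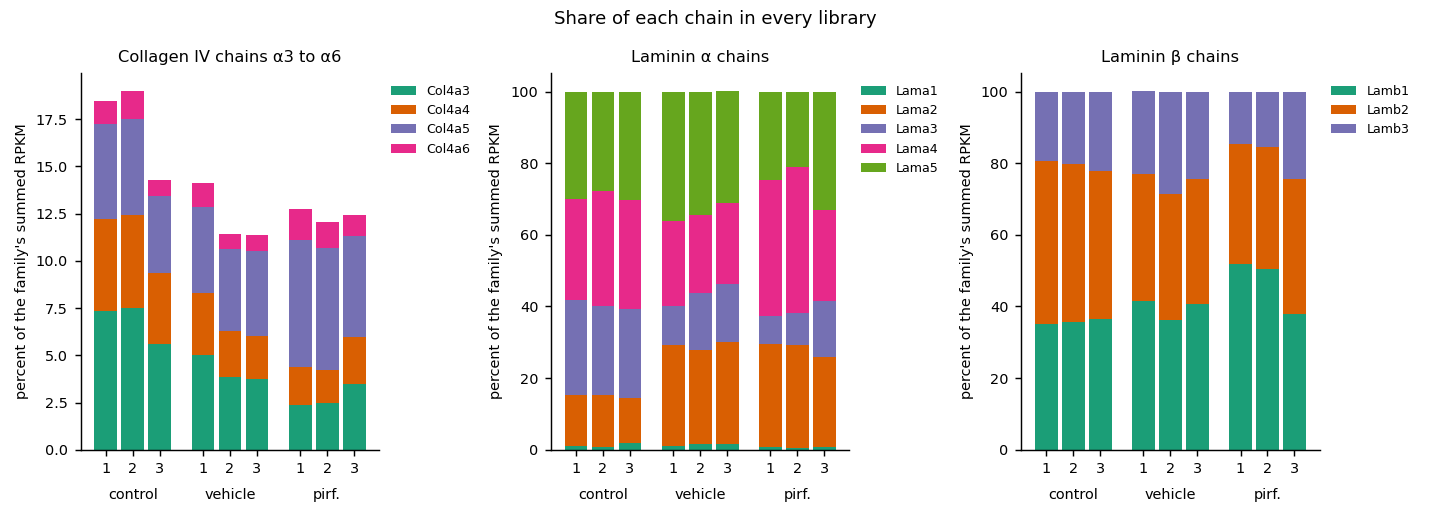
Share of each chain in its family's summed RPKM (y axis, percent) in each library (x axis, libraries 1 to 3 of each group), for collagen IV chains α3 to α6, with Col4a1 and Col4a2 as the rest up to 100%, and for the laminin α and β chains. The Col4a3 share falls from 5.61% to 7.48% in control to 2.37% to 3.46% in pirfenidone lungs, and the Lama2 share rises from 12.4% to 14.5% to 26.3% to 28.5% in vehicle lungs.

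Among the other collagens, Col15a1 had the largest log2 change of all members. It encodes collagen XV, which lies at the outer face of basement membranes of capillaries, muscle and fat. Col15a1 (gene ID 12819, chromosome 4, 47207655 to 47313167) read 4.85, 5.89 and 6.6 RPKM in control, 56.6, 53.7 and 71.7 in TGFα vehicle and 168, 122 and 56.7 in pirfenidone. Every TGFα library exceeded every control, and pirfenidone libraries 1 and 2 stood above the rest while pirfenidone library 3 lay among the vehicle libraries. The mean rose 10.5-fold with vehicle (log2 difference 3.18 ± 0.34, adjusted p = 0.00144) and 20-fold with pirfenidone (3.98 ± 0.34, adjusted p = 0.000565), both against control. Neither call was lost under any setting tried or with any library left out. Skeletal muscle genes summed to 1296, 484 and 5.98 RPKM and adipocyte genes to 209, 40.2 and 30.2 RPKM in vehicle libraries 1 to 3. Their part in the level of Col15a1 was not tested. The related collagen XVIII, Col18a1, the source of endostatin, averaged 15 ± 1.15, 12.7 ± 1.47 and 16.5 ± 0.685 RPKM (adjusted p = 0.12 for vehicle against control). Col7a1, the anchoring fibril collagen of skin, lay at 0.806 to 1.63 RPKM. Every vehicle library lay below every control, with a 1.53-fold lower mean (log2 difference -0.35 ± 0.13, adjusted p = 0.0827). The adjusted p was 0.0369 with limma-voom and 0.028 to 0.256 with single libraries left out.

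The laminin alpha chains, which carry the cell binding end of the trimer, differed in their mix between the groups. Their summed level was 62.7 ± 7.85 RPKM in control, 68.7 ± 5.39 in TGFα vehicle and 61.9 ± 4.23 in pirfenidone lungs. The share of Lama2, the alpha chain best known from muscle and nerve basement membranes, was 13.7% ± 1.18 in control, 27.6% ± 1.15 in vehicle and 27.7% ± 2.11 in pirfenidone lungs. The share of Lama3, the alpha chain of the epithelial laminin that binds hemidesmosomes, was 25.5% ± 0.879, 14.3% ± 2.93 and 10.8% ± 4.21.

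Lama2 (gene ID 16773, chromosome 10, 26981285 to 27617191) read 9.95, 9.33 and 6.7 RPKM in control, 20.4, 16.5 and 20.3 in TGFα vehicle and 19.1, 16.6 and 15.7 in pirfenidone. All TGFα libraries stood above all controls. The part of the skeletal muscle transcripts given above in these levels was not tested. The rise was 2.2-fold with vehicle (log2 difference 1.06 ± 0.15, adjusted p = 0.003) and 1.98-fold with pirfenidone (0.92 ± 0.15, adjusted p = 0.00575), and leaving out any library kept both calls. Its exons share 631 bases with an annotated gene, Gm48084, and the strand of counting is not stated.

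Lama3 (gene ID 16774) read 18.4, 16.2 and 13.4 RPKM in control, 7.88, 9.96 and 11.4 in TGFα vehicle and 5.21, 5.09 and 9.72 in pirfenidone. Every control lay above every TGFα library, and pirfenidone libraries 1 and 2 were the lowest. The difference was -0.67 ± 0.23 for vehicle (1.64-fold lower mean, adjusted p = 0.0674) and -1.19 ± 0.23 for pirfenidone (2.4-fold lower, adjusted p = 0.011). Lama4, the chain of endothelial and mesenchymal basement membranes, read 19.7, 20.5 and 16.6 RPKM in control, 17.3, 13.6 and 16.1 in vehicle and 25, 23.5 and 16 in pirfenidone, with no call in either comparison (adjusted p = 0.293 for vehicle and 0.552 for pirfenidone, against control). Lama5, the chain of the main laminin under adult epithelia, read 20.8, 17.9 and 16.4 RPKM in control, 26.1, 21.5 and 22.3 in vehicle and 16.3, 12.1 and 20.5 in pirfenidone. Its vehicle libraries stood above both other groups, with a log2 difference of 0.33 ± 0.17 against control (adjusted p = 0.201). Lama1, the chain of embryonic basement membranes, lay at 0.294 to 1.21 RPKM.

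Among the beta chains, Lamb3, the partner of Lama3, rose in TGFα vehicle lungs. Lamb3 (gene ID 16780, chromosome 1, 193294353 to 193343878) read 17.1, 17.8 and 16.4 RPKM in control, 23.9, 28 and 26.6 in vehicle and 14.9, 14.6 and 23.7 in pirfenidone. The vehicle libraries stood above all others, and pirfenidone libraries 1 and 2 lay below the controls. The 1.53-fold rise with vehicle had a log2 difference of 0.58 ± 0.17 and an adjusted p of 0.0358, which ranged from 0.0699 to 0.122 when any control, vehicle library 2 or vehicle library 3 was left out.

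Lamb1, the beta chain of the widespread laminins, read 30.9, 31.1 and 26.9 RPKM in control, 43.3, 35.6 and 44.5 in TGFα vehicle and 52.3, 47.2 and 36.6 in pirfenidone. All TGFα libraries lay above the controls. The rise was 1.39-fold with vehicle (log2 difference 0.45 ± 0.14, adjusted p = 0.0482) and 1.53-fold with pirfenidone (0.58 ± 0.14, adjusted p = 0.0239). The first call was lost when any of 7 libraries was left out (adjusted p of up to 0.161), with median-of-ratios scaling (0.0786), with the replicate number as a block (0.0517) and without the filter on low values (0.0511). The second was lost without control library 1 or 2 or pirfenidone library 1 or 2, at 0.0616 to 0.0831. Lamb2, the beta chain of vessel and synaptic basement membranes, averaged 36.4 ± 5.43, 36.5 ± 1.87 and 34 ± 2.32 RPKM, and the log2 difference for vehicle was 0.01 ± 0.11.

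Lamc3, a gamma chain of restricted expression, was the laminin with the largest relative rise. Lamc3 (gene ID 23928, chromosome 2, 31887281 to 31949083) read 2.53, 2.54 and 2.38 RPKM in control, 7.44, 7.27 and 8.01 in TGFα vehicle and 5.61, 5.47 and 9.26 in pirfenidone. The control libraries were tight and every TGFα library exceeded them by a wide margin. The rise was 3.05-fold with vehicle (log2 difference 1.30 ± 0.17, adjusted p = 0.00244) and 2.73-fold with pirfenidone (1.13 ± 0.17, adjusted p = 0.00399), and no left-out library ended either call. Lamc1, the gamma chain of most laminins, averaged 34 ± 2.55, 38.2 ± 2.99 and 42.7 ± 4.02 RPKM (adjusted p = 0.253 for vehicle and 0.0511 for pirfenidone, against control).

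The linkers between the laminin and collagen networks differed from each other. Nid1, nidogen 1, binds both laminin and collagen IV. It read 35.8, 36.3 and 27.1 RPKM in control, 40.9, 43.7 and 52.6 in TGFα vehicle and 76.3, 67.2 and 55.5 in pirfenidone, and no group overlapped another. The log2 difference was 0.46 ± 0.16 for vehicle (adjusted p = 0.064) and 0.98 ± 0.16 for pirfenidone (2.01-fold, adjusted p = 0.00542), both against control. Its homologue Nid2 read 5.13, 5.01 and 4.14 RPKM in control, 4.05, 3.41 and 4.04 in vehicle and 6.57, 6.68 and 4.71 in pirfenidone. The vehicle libraries were the lowest of the 9, with a difference of -0.25 ± 0.14 from control (adjusted p = 0.215). Hspg2, the gene of perlecan, averaged 19.5 ± 4.05, 23.1 ± 2.91 and 26.7 ± 7.23 RPKM with overlapping groups. Agrn, the gene of agrin, averaged 48.1 ± 6.27, 36.6 ± 2.49 and 33 ± 7.71 RPKM. Its fall with pirfenidone against control had an adjusted p of 0.0456, which rose to 0.0523 or more when any of 7 libraries was left out, to 0.0723 with the replicate number as a block and to 0.0897 with only the groups compared in the model.

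The fibulins, calcium-binding glycoproteins that join basement membranes to elastic fibres, were higher in pirfenidone lungs than in controls. Fbln1 (gene ID 14114, chromosome 15, 85205949 to 85286294) read 14.1, 14.7 and 9.68 RPKM in control, 24.8, 17.1 and 21.7 in TGFα vehicle and 79.8, 66.3 and 24.8 in pirfenidone. Pirfenidone libraries 1 and 2 stood far above all others, and pirfenidone library 3 was level with the highest vehicle library. Against control the log2 difference was 0.69 ± 0.38 for vehicle (adjusted p = 0.222) and 1.93 ± 0.38 for pirfenidone (4.45-fold, adjusted p = 0.0122). Fbln2 (gene ID 14115, chromosome 6, 91212460 to 91272540) read 7.36, 9.22 and 5.65 RPKM in control, 25.9, 13 and 19.2 in vehicle and 67.9, 48.4 and 17.5 in pirfenidone. All TGFα libraries exceeded the controls, and pirfenidone library 3 again lay within the vehicle range. The difference was 1.25 ± 0.45 for vehicle (adjusted p = 0.076) and 2.26 ± 0.45 for pirfenidone (6.02-fold, adjusted p = 0.0122). Both pirfenidone calls were narrowly lost without pirfenidone library 2, at 0.0508 for Fbln1 and 0.0505 for Fbln2. Smoc2, a calcium-binding matricellular protein, showed the same split between pirfenidone libraries. It read 34.3 and 30.5 RPKM in pirfenidone libraries 1 and 2, against 15.8 RPKM in library 3 and 14.6 to 16.5 RPKM in vehicle lungs. Unlike the fibulins it was not called against control, where it read 19.8, 21.1 and 11.7 RPKM. The pirfenidone and control libraries overlapped (adjusted p = 0.215).

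The 3 members that fell in TGFα vehicle lungs are secreted glycoproteins. Netrin 4, encoded by Ntn4, binds laminin gamma chains and opens laminin networks. Ntn4 (gene ID 57764, chromosome 10, 93641049 to 93745972) read 44.7, 43.1 and 25.8 RPKM in control, 24.4, 18 and 18.9 in vehicle and 17.9, 16.8 and 19.3 in pirfenidone. Control library 3 lay well below the other controls yet above every TGFα library. The fall was 1.86-fold with vehicle (log2 difference -0.83 ± 0.20, adjusted p = 0.0205) and 2.1-fold with pirfenidone (-0.99 ± 0.20, adjusted p = 0.0133).

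Ntn1, the guidance cue netrin 1, read 37.1, 35.7 and 22.9 RPKM in control, 23.2, 14.9 and 18.2 in vehicle and 22.3, 20.1 and 20.9 in pirfenidone. Control library 3 and vehicle library 1 met, so the groups overlapped. The mean was 1.7-fold lower with vehicle (-0.72 ± 0.20, adjusted p = 0.0325), and the comparison of pirfenidone with control gave no call (adjusted p = 0.0908). Tinagl1, a matricellular protein related to tubulointerstitial nephritis antigen, read 56.4, 56.3 and 38.1 RPKM in control, 41.4, 25.1 and 25 in vehicle and 28.6, 25.1 and 23.2 in pirfenidone. Vehicle library 1 lay above control library 3. The fall was 1.65-fold with vehicle (-0.72 ± 0.22, adjusted p = 0.0435) and 1.96-fold with pirfenidone (-0.93 ± 0.22, adjusted p = 0.0214). For all 3 genes the vehicle call was lost when control library 1 or 2 or vehicle library 2 or 3 was left out, with adjusted p of up to 0.0813 for Ntn4, 0.119 for Ntn1 and 0.151 for Tinagl1. The Tinagl1 vehicle call was also lost without pirfenidone library 1 or 2 (0.0578 and 0.0638). With only the groups compared in the model, the vehicle calls of Ntn1 (0.0611) and Tinagl1 (0.0718) were lost. The pirfenidone calls of Ntn4 (0.0502 to 0.0526) and Tinagl1 (0.0702 to 0.0797) were lost without control library 1, control library 2 or pirfenidone library 2.

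Egfl6, a secreted protein with epidermal growth factor repeats that binds integrins, rose with vehicle. Egfl6 (gene ID 54156, chromosome X, 166523007 to 166585716) read 22.6, 21.3 and 29.1 RPKM in control, 51.4, 97.5 and 77.6 in vehicle and 28.8, 33.9 and 66.8 in pirfenidone. All vehicle libraries exceeded the controls, while pirfenidone libraries 1 and 2 lay near the controls and library 3 among the vehicle libraries. The rise was 3.11-fold (log2 difference 1.56 ± 0.32, adjusted p = 0.0116, and 0.0501 without vehicle library 2). Against control, the pirfenidone group's difference was 0.72 ± 0.32 (adjusted p = 0.155). Egflam, pikachurin, a dystroglycan ligand known from the retina, averaged 18.5 ± 4.65, 12.6 ± 1.13 and 14.7 ± 0.274 RPKM (adjusted p = 0.0643 for vehicle against control). Npnt, nephronectin, an integrin ligand, was the most abundant glycoprotein of the list at 134 to 229 RPKM, with no call in any comparison.

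The FRAS and FREM proteins, which hold the epidermis to the dermis in the embryo, were scarce. Frem1 was at 1.8 to 3.98 RPKM with a log2 difference of 0.14 ± 0.16 for TGFα vehicle against control. Fras1 was at 0.459 to 0.754 RPKM in control, 0.339 to 0.379 in vehicle and 0.396 to 0.478 in pirfenidone lungs, and was not tested. Frem2 read 0.275, 0.408 and 0.225 RPKM in control, 0.222, 0.927 and 0.854 in vehicle and 0.106, 0.202 and 0.608 in pirfenidone, resting on as few as 15 reads.

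The receptors on the list gave no call in any comparison. Dag1, the gene of dystroglycan, which binds laminin alpha chains, perlecan and agrin, read 83.6, 79.2 and 68.5 RPKM in control, 81.2, 128 and 118 in TGFα vehicle and 66.8, 65.8 and 104 in pirfenidone. Vehicle libraries 2 and 3 and pirfenidone library 3 were high, and vehicle library 1 lay among the controls (log2 difference 0.47 ± 0.22, adjusted p = 0.143). Itga6 and Itgb4 encode the chains of the hemidesmosomal laminin receptor. Itga6 varied little, at 21.8 to 26.6 RPKM over the 9 libraries. Itgb4 averaged 3.41 ± 0.779, 2.12 ± 0.414 and 2.36 ± 0.58 RPKM (adjusted p = 0.0852 for vehicle against control, and 0.0365 with the replicate number as a block).

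**Figure D3:**
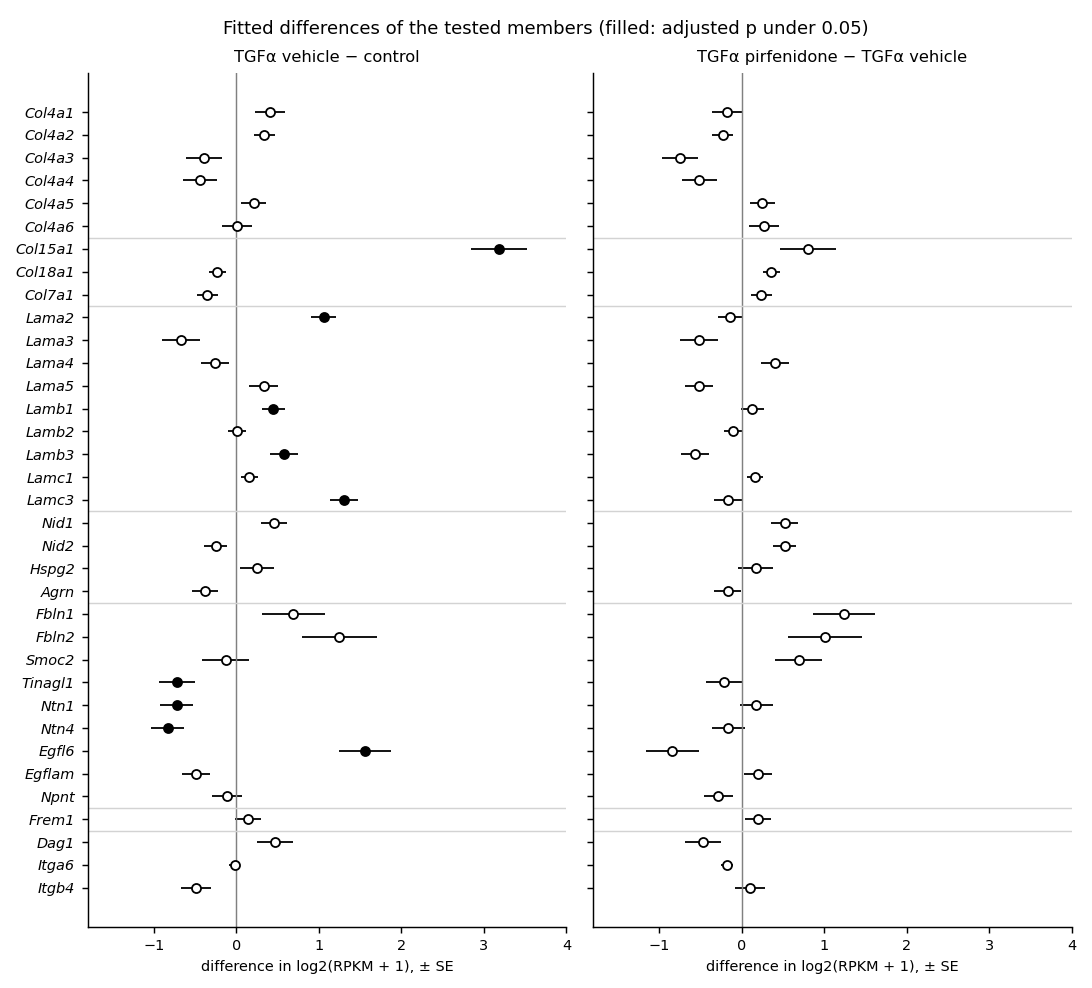
Difference in log2(RPKM + 1) with its SE (x axis) for each of the 35 tested members (y axis, ordered by role), for TGFα vehicle minus control and for pirfenidone minus TGFα vehicle; filled points passed an adjusted p under 0.05. On the left 9 members are filled, from Col15a1 at 3.18 to Ntn4 at -0.83, and on the right none is.

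Pirfenidone was compared with vehicle within the TGFα mice to see what the drug changed. By limma, 0 of the 35 tested members passed in either direction, where 0.152% of all genes tested rose and 0.549% fell. The smallest adjusted p of a member was 0.105, for Nid2. At an unadjusted p under 0.05 there were 13 members, 7 higher and 6 lower with pirfenidone, against 20.7% of all genes. The libraries of the groups did not overlap for 11 members (31.4%, against 24.4% of all genes). With limma-voom on the recovered reads the count was 0 as well.

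Pirfenidone library 3 decided this count. It lay nearer to the mean of the vehicle libraries than to pirfenidone libraries 1 and 2 for 26 of the 35 tested members (74.3%), and for 64% of all genes. Without it, 7 members were higher with pirfenidone than with vehicle (20%, against 7.65% of all genes) and 8 were lower (22.9%, against 7.68%). The higher ones were Fbln1, Fbln2, Col15a1, Smoc2, Nid2, Nid1 and Lama4, and the lower ones were Egfl6, Col4a3, Lama3, Lamb3, Col4a4, Lama5, Dag1 and Lamc3. Fbln1 then had a log2 difference of 1.75 ± 0.21 (adjusted p = 0.00399) and Col15a1 one of 1.24 ± 0.18 (adjusted p = 0.00689). Col4a3 had -1.01 ± 0.16 (adjusted p = 0.00876) and Lamb3 -0.79 ± 0.08 (adjusted p = 0.00343). These values compare 2 pirfenidone libraries with 3 vehicle libraries, and nothing in the labels sets pirfenidone library 3 apart. Leaving out a library that lies nearer to vehicle favours calls by construction, and all genes called went from 97 to 2124. No conclusion about the drug was drawn from these calls.

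**Figure D4:**
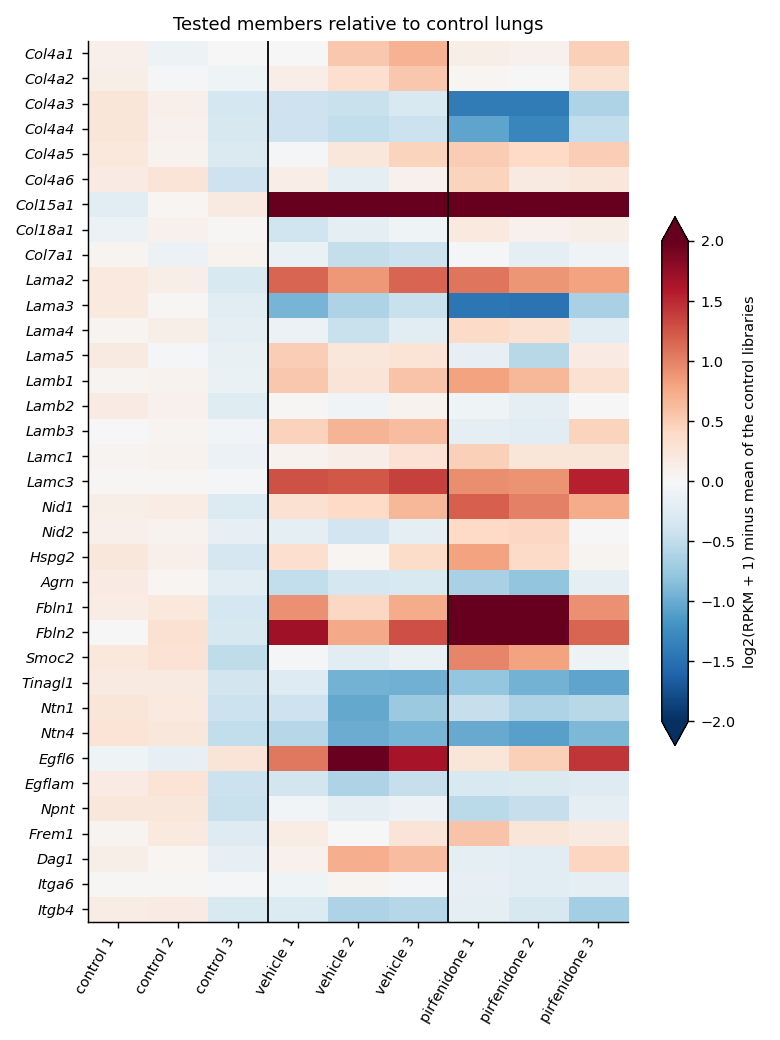
Difference in log2(RPKM + 1) of each library (x axis) from the mean of the control libraries (color, from -2 to 2) for the 35 tested members (y axis). Col15a1 is above control in all 6 TGFα libraries, and Fbln1 and Fbln2 are highest in pirfenidone libraries 1 and 2.

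Set against control, the pirfenidone group had 7 members higher (20%, against 10.6% of all genes) and 6 lower (17.1%, against 7.74%). The higher ones were Col15a1, Fbln2, Fbln1, Lamc3, Nid1, Lama2 and Lamb1, and the lower ones were Lama3, Col4a3, Ntn4, Col4a4, Tinagl1 and Agrn. The libraries did not overlap for 16 members (45.7%, against 37.3% of all genes). This comparison shares its control libraries with that of TGFα vehicle and control. Without pirfenidone library 2 there were 4 higher members, and there were 2 lower ones without control library 1, control library 2 or pirfenidone library 2. Those fits called 1121 to 1161 genes in both directions together, against 2545 with all libraries.

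Cell type markers moved with the groups, and in bulk RNA fewer cells of a type cannot be told apart from less RNA per cell. The 23 endothelial genes summed to 2494 to 3765 RPKM in control, 1278 to 1785 in TGFα vehicle and 1515 to 1560 in pirfenidone lungs, and 20 of them fell with vehicle. Control library 3, low for Ntn4, Ntn1 and Tinagl1, had the lowest endothelial sum of the controls. Its alveolar type 1, airway, fibroblast, smooth muscle and mesothelial sums were also the lowest of the controls. Its alveolar type 2 and leukocyte sums were the highest of the controls. The 13 alveolar type 1 genes, from the flat epithelial cells that share a basement membrane with the capillaries, summed to 2137 to 3189, 1804 to 1914 and 1309 to 2047 RPKM. Against control, 5 of them fell with vehicle and 9 with pirfenidone, where 11.2% and 7.74% of all genes fell. In pirfenidone libraries 1 to 3 that sum was 1356, 1309 and 2047 RPKM, the order in which Col4a3 and Lama3 were low, low and higher. The 12 alveolar type 2 genes, from the surfactant-producing cells, summed to 18455 to 19282 RPKM in control and 26329 to 28379 in vehicle, and to 18119, 18412 and 25744 in the pirfenidone libraries. With vehicle 5 of them rose (Etv5, Napsa, Lpcat1, Sftpb and Slc34a2) and 2 fell (Lyz1 and Cxcl15), while Sftpc, which makes up most of the sum, had an adjusted p of 0.159 (13051 ± 170 RPKM in control and 20856 ± 1123 in vehicle). Egfl6, Lamb3, Lama5 and Dag1 were also lower in pirfenidone libraries 1 and 2 than in library 3. Among the controls, library 3 had the highest type 2 sum and the highest Egfl6 level. It had the lowest Lamb3, Lama5 and Dag1 levels of the controls.

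The 14 fibroblast genes, of which Npnt is also a member, summed to 2189 to 3036 RPKM in control, 2655 to 3100 in vehicle and 5504, 5433 and 3500 in the pirfenidone libraries. With vehicle 4 of them rose against control (Lum, Col1a1, Col1a2 and Col3a1) and 3 fell (Clec3b, Dpt and Limch1), and with pirfenidone 5 rose and 2 fell. Lum went from 6.67 ± 1.38 to 83.4 ± 14.3 RPKM with vehicle (adjusted p = 0.00135) and Dpt from 114 ± 9.28 to 17.6 ± 17.3 RPKM (adjusted p = 0.00787). The 6 adipocyte genes summed to 33.5 to 60.3 RPKM in control, to 209, 40.2 and 30.2 in vehicle and to 626, 524 and 86.1 in pirfenidone. Fbln1, Fbln2, Smoc2 and Col15a1 were high in the same pirfenidone libraries 1 and 2. No gene of these 5 lists was at 0 in any library. In the skeletal muscle list Myh4 and Pvalb were at 0 in at least 1 library. The part of these cell types in the levels of the members was not tested.

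**Figure D5:**
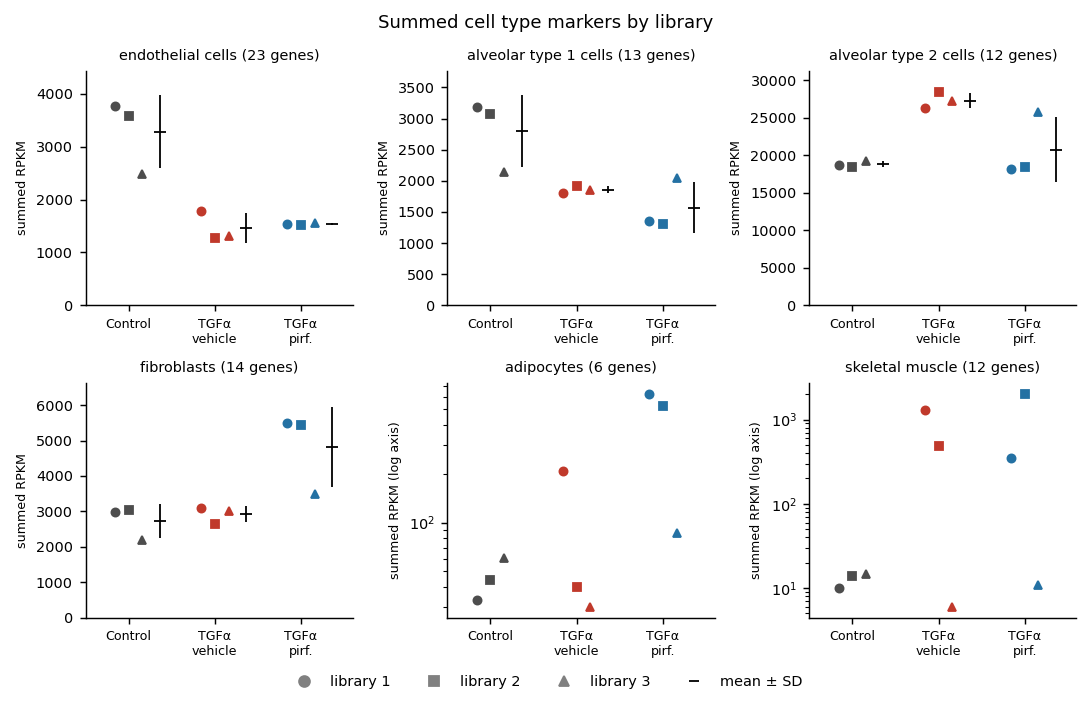
Summed RPKM (y axis; log axis for adipocytes and skeletal muscle) of marker genes of 6 cell types in each library of the 3 groups (x axis); symbols are libraries and the bar is mean ± SD. Endothelial sums fall from 2494 to 3765 RPKM in control to 1785 RPKM or less in all TGFα libraries, and pirfenidone library 3 lies apart from libraries 1 and 2 for alveolar type 1 and type 2, fibroblast and adipocyte genes.

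Other genes of basement membrane biology were counted from fixed lists for TGFα vehicle against control. For these lists and the marker lists, the shares of all genes tested were 12.0% higher and 11.2% lower. The median log2 change of all genes was 0.04. Of 21 cell receptors for laminin and collagen IV tested, 5 rose (Itga9, Gpc1, Itgav, Sdc1 and Sdc4) and 4 fell (Mcam, Itga2, Itga3 and Gpc3). The median log2 change of this list was -0.02. Itga9, an integrin chain that binds several matrix ligands, went from 12.2 ± 1.14 to 26.5 ± 0.994 RPKM (adjusted p = 0.000538). Gpc1, a glypican, a heparan sulfate proteoglycan on the cell surface, went from 7.48 ± 1.56 to 20.3 ± 3.47 RPKM (adjusted p = 0.00228). Mcam, a cell adhesion molecule that binds laminin chains, went from 95.7 ± 10.6 to 55.9 ± 3.45 RPKM (adjusted p = 0.00262). Itga3, the integrin chain that pairs with Itgb1 to bind epithelial laminins, went from 46.6 ± 5.32 to 23.2 ± 0.461 RPKM (adjusted p = 0.0138). It was the 1 gene called of 6 tested on the hemidesmosome list, whose median log2 change was -0.21.

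Of 19 genes for collagen IV assembly and cross-linking, 8 rose and 2 fell, with a median of 0.24. Those that fell were Loxl4 and Pxdn. Loxl4, a lysyl oxidase relative that cross-links collagen, went from 1.23 ± 0.178 to 0.314 ± 0.0116 RPKM (adjusted p = 0.00553). It passed the filter only through the control libraries, and a TGFα library held as few as 29 reads. Its entry to the test thus depended on the group where it was high. Pxdn encodes peroxidasin, the enzyme that forms the sulfilimine bonds between collagen IV trimers, and went from 31.4 ± 5.94 to 17.7 ± 1.49 RPKM (adjusted p = 0.00607). P4ha3, a collagen prolyl hydroxylase subunit, went from 0.645 ± 0.0992 to 5.46 ± 2.72 RPKM (adjusted p = 0.00636). It passed the filter only through the TGFα libraries, with 0.554 to 0.751 RPKM in control, so the same limit holds. Of 27 proteases and inhibitors, 4 rose (Serpine2, Bmp1, Mmp14 and Timp1) and 2 fell (Mmp9 and Tll1), with a median of 0.06. Serpine2, an inhibitor of serine proteases, went from 33.3 ± 2.03 to 151 ± 49.1 RPKM (adjusted p = 0.00145). Bmp1, a protease that trims laminin and procollagen chains, went from 16.4 ± 1.36 to 38 ± 4.35 RPKM (adjusted p = 0.00386). Mmp9, a gelatinase that cuts collagen IV, went from 7.94 ± 1.81 to 2.37 ± 0.282 RPKM (adjusted p = 0.00191).

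Of 20 genes for heparan sulfate synthesis and editing, Sulf1 rose and Hs3st1 fell, with a median of -0.03. Sulf1, an enzyme that removes sulfate from heparan sulfate chains such as those of perlecan and agrin, went from 14.8 ± 1.91 to 25.9 ± 4.54 RPKM (adjusted p = 0.0249). Hs3st1, a heparan sulfate sulfotransferase, went from 12.4 ± 3.2 to 7.76 ± 0.421 RPKM (adjusted p = 0.0478). Of 24 genes of the dystrophin complex and of dystroglycan glycosylation, Dtnb, a dystrobrevin, rose from 6.51 ± 0.618 to 13.1 ± 2.7 RPKM (adjusted p = 0.0132) and none fell. Of 15 further basement membrane genes, 4 rose (Vwa1, Matn2, Rpsa and Tgfbi) and 3 fell (Adamtsl4, Hmcn1 and Smoc1), with a median of 0.27. Vwa1, a perlecan-binding protein, went from 2.68 ± 0.52 to 6.81 ± 0.73 RPKM (adjusted p = 0.00173). Matn2, a matrilin, went from 1.69 ± 0.27 to 4.77 ± 1.11 RPKM (adjusted p = 0.00573), and Rpsa, the laminin receptor that is also a ribosomal protein, from 294 ± 31.5 to 506 ± 88.8 RPKM (adjusted p = 0.00772).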

How the data were processed

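Total lung RNA was sequenced in 9 libraries. Per the submitters' processing notes the tools were bcl2fastq, CASAVA 1.8, TopHat and DESeq and the build mm10. Their roles, the annotation and the strand of counting are not stated. The authors deposited RPKM values for 16165 genes. The header names no unit, and it was settled from the values, which are whole multiples of 1 read per gene length for 16163 genes (99.99%, tolerance 0.0001 reads). A floor of 3 reads equals 0.159 to 0.262 RPM and covers counting error only. Symbols of 29 genes were taken from RefSeq by gene ID.

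The 13849 genes over 1 RPKM in 3 or more libraries entered a limma-trend model (limma 3.58.1, R 4.3.3) of log2(RPKM + 1) that held the 9 libraries and the group alone, two-sided, with Benjamini-Hochberg adjustment and a threshold of 0.05. A fold is the ratio of mean RPKM. The log2 difference is on the log2(RPKM + 1) scale and understates changes of low genes. Levels stand as mean ± SD (n = 3) and differences as ± SE. Values of each library are given for members that passed with at least a 1.5-fold change and for their partners in known complexes, and for further members chosen after their values were seen. The members and lists were chosen with earlier results of these data known. Of each pathway list, up to 3 genes with the smallest p are described.

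Alternatives were pseudocounts of 0.1 and 0.5, no filter, median-of-ratios scaling, a replicate block, only the groups compared, robust empirical Bayes, each library left out, and vehicle library 1 with pirfenidone library 3 left out. limma-voom on the recovered reads was added after seeing the data. Annotated exons of 13 members share bases with another gene, at most 8.95% of the length behind the RPKM (Nid2).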

Additional observations from a re-analysis of the deposited data

How the results depend on the processing

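Over the 22 calls of members described and 18 alternatives each, 339 of 396 values kept their side of the threshold, 57 lost it and 0 changed direction. With vehicle library 1 and pirfenidone library 3 left out together, TGFα vehicle against control gave 4960 genes called instead of 3222, with 11 members higher instead of 6 and 6 lower instead of 3. Pirfenidone against vehicle then gave 3032 genes instead of 97, with 6 members higher and 10 lower instead of 0 and 0. For pirfenidone against vehicle, 63 genes were called without the filter and 11 when only those groups were fitted. The cause was not tested.

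Leaving out each library in turn gave 1317 to 3977 genes for TGFα vehicle against control, with 3 to 9 members higher and 0 to 5 lower. It gave 10 to 2124 genes for pirfenidone against vehicle, with 0 to 7 members higher and 0 to 8 lower. It gave 1121 to 3069 genes for pirfenidone against control, with 4 to 9 members higher and 2 to 9 lower.

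Same-numbered libraries deviated together only in part: the correlations of their deviations from the group means ran from -0.136 to 0.458, so the replicate numbers were not taken as pairs. With the replicate number as a block, TGFα vehicle against control gave 3222 genes, with 5 members higher and 4 lower. Pirfenidone against vehicle gave 21 genes and 0 members, and pirfenidone against control gave 2483 genes, with 7 members higher and 5 lower. The block ended the calls of Lamb1 (vehicle) and Agrn (pirfenidone), made one of Itgb4 (vehicle) and changed no other call of a member. At 3 libraries a group, a member whose change was small against the spread could not be called, and an uncalled member is not shown to be unchanged.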

Other observations

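Several marker lists outside the alveolus also differed between the groups. Of 10 cardiac muscle genes, 9 were tested and 8 fell in TGFα vehicle lungs against control, with summed levels of 295 to 627 RPKM in control, 62.8 to 147 in vehicle and 227 to 274 in pirfenidone lungs. Of 10 airway genes tested, 7 fell, among them the ciliated cell genes Foxj1, Tppp3 and Pifo, and the sums were 32530 to 54681, 15628 to 33902 and 15721 to 19833 RPKM. Of 8 mesothelial genes 4 fell and Wt1 rose, with sums of 197 to 258, 126 to 132 and 105 to 148 RPKM. Of 13 smooth muscle and pericyte genes 5 fell and Rgs5 rose, with sums of 352 to 498, 285 to 370 and 333 to 518 RPKM. Of 12 leukocyte genes 6 fell, and control library 3, at 532 RPKM, stood apart from the other controls at 202 and 205 RPKM. The leukocyte sums were 200 to 247 RPKM in vehicle and 217 to 246 RPKM in pirfenidone lungs.

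Pirfenidone library 2 held keratins of basal and squamous epithelium. Krt5 was at 21.1 RPKM there, at 1 RPKM in pirfenidone library 3 and at 0.447 RPKM or less in every other library. Krt15 was at 13.6 RPKM in pirfenidone library 2 and Krt14 at 7.38 RPKM. The hemidesmosomal collagen gene Col17a1 was at 1.26 RPKM in that library and at 1.34 RPKM in control library 2, and Itgb4 did not stand out there, at 2.5 RPKM.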
